A study of Homo sapiens with 12 samples.

Results

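The mitochondrial ribosomal protein genes are the nuclear genes for the protein part of the ribosome inside mitochondria. They were taken as every protein-coding gene of GENCODE release 29 whose symbol is MRPL or MRPS followed by digits and an optional letter. The rule found 78 of the 60617 genes listed, 49 large subunit genes (MRPL) and 29 small subunit genes (MRPS). Subunit is meant by symbol throughout, although MRPS18A and MRPS30 sit in the large subunit and MRPS36 is now assigned to another complex. No counts without these genes are given. All 78 passed the filter on low counts, as 78 of the 21581 genes tested. RNA was sequenced from 12 libraries of A549, a human lung adenocarcinoma cell line, grown in DMEM with FBS and harvested 24 h after transfection. In the 4 siYAP/TAZ#1 libraries (#1 for short) the cells had received siRNAs to both YAP1 and WWTR1, the TAZ gene, in one combination, in the 4 siYAP/TAZ#2 libraries (#2 for short) another combination against the same pair, and in the 4 siCo libraries a non-targeting control. Every group was transfected, so no untreated cells are included, and the study asked which RNAs depend on YAP/TAZ. The 4 libraries per group are called biological replicates in the design text, which gives no passages or days, so p-values measure the spread between these libraries, which are 1 cell line.

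YAP1 and WWTR1 are transcriptional coactivators that the Hippo kinases keep out of the nucleus and that act on DNA through the TEAD factors. The mitochondrial ribosome reads only the few mRNAs made from mitochondrial DNA, all for subunits of the respiratory chain and ATP synthase. Its rRNAs come from mitochondrial DNA, while its proteins are encoded in the nucleus, made in the cytosol and imported. The small subunit (MRPS proteins) binds mRNA and decodes it, and the large subunit (MRPL proteins) joins the amino acids. Promoters of nuclear mitochondrial genes are known for sites of NRF1, of the ETS factor GABP and of YY1.

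Promoter windows are shown for the gene that binds the mitochondrial RNA polymerase (MRPL12), for the decoding-centre protein with the highest small subunit level (MRPS12), and for the first 2 genes per subunit, by size of change, that fell with both combinations and hold an ETS or YY1 word there. Each is the 150 bases 5′ of the RefSeq start site (GRCh38.p14), written 5′ to 3′ on the gene's strand, with capitals for a word of the search given after them. MRPL12 is at chr17:81703217-81703366 (+), MRPL3 at chr3:131502972-131503121 (-), MRPL33 at chr2:27771569-27771718 (+), MRPS12 at chr19:38930794-38930943 (+), MRPS34 at chr16:1773135-1773284 (-) and MRPS23 at chr17:57850045-57850194 (-).
MRPL12: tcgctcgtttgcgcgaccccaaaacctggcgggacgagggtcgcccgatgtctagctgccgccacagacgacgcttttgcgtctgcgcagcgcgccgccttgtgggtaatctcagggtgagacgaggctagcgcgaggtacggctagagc
MRPL3: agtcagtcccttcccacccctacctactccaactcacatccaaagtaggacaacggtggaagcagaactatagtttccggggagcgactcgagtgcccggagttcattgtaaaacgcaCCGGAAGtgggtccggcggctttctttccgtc
MRPL33: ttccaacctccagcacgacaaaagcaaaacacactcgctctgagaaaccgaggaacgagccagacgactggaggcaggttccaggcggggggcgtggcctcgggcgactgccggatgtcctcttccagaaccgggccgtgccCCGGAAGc
MRPS12: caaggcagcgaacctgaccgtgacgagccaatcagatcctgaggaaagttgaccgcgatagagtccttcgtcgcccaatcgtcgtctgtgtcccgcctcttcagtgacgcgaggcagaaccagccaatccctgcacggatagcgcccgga
MRPS34: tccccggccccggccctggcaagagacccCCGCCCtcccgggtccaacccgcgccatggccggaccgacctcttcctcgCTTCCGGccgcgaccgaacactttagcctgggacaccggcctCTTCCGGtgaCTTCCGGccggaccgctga
MRPS23: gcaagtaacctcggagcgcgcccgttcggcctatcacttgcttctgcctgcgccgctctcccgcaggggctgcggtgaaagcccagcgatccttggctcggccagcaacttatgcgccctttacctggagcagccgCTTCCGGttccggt
The ETS word starts 32 bases before the start site of MRPL3, 8 before that of MRPL33 and 14 before that of MRPS23. MRPS34 holds it at 71, 29 and 19 bases, with an SP1 word at 121. The windows of MRPL12 and MRPS12 hold none of the words in these bases. In the longer window of the search described next, MRPS12 held 1 ETS and 1 SP1 word and MRPL12 held 0 of any word.

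The search covered 6 words on both strands of the RefSeq window from 250 bases before to 50 after each start site, where no word contains another: CATGCGC (NRF1 core), CCGGAAG (ETS, GABP), ATGGCGG (YY1), GGGCGG (SP1), CACGTG (E-box) and GGAATG (TEAD). A window was found for 42 of 49 MRPL genes, 27 of 29 MRPS genes and 11415 of the 14797 coding symbols tested. The ETS word stood in 17 MRPL windows (40.5%) and 12 MRPS windows (44.4%), against 17.8% of all coding windows. The YY1 word stood in 14 MRPL windows (33.3%) and 10 MRPS windows (37.0%), against 9.6%. The SP1 word stood in 54.8% of MRPL and 70.4% of MRPS windows, against 68.0%. The NRF1 word stood in 11.9% and 7.41%, against 6.98%, the E-box in 11.9% and 3.7%, against 9.78%, and the TEAD word in 19.0% and 7.41%, against 10.9%. The median GC content was 61.3% in MRPL and 60.0% in MRPS windows, against 65%. These are matches of letters and do not show binding.

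The libraries held 29617111 to 38264296 estimated counts, and the replicates of a group correlated at 0.979 to 0.991 (Pearson's r of log2 CPM across genes). WWTR1 averaged 32.9 ± 1.14 CPM in siYAP/TAZ#1 and 32.4 ± 2.38 in siYAP/TAZ#2, against 241 ± 9.71 in siCo, where CPM is the count scaled to library size by TMM (SD, n = 4 each). YAP1 averaged 18.7 ± 1.43 CPM in #1 and 17.4 ± 1.19 CPM in #2, against 121 ± 4.03 in siCo, and both genes had two-sided exact permutation p = 0.0286, the smallest that 4 against 4 allows. The 5 epithelial markers KRT8, KRT18, KRT19, EPCAM and CDH1 summed to 1578 to 2405 TPM in siYAP/TAZ#1 and 1608 to 2383 in siYAP/TAZ#2, against 1096 to 1622 in siCo. Marker sums here are of deposited TPM, where all genes tested had a median log2 change of 0.19 with #1 and 0.24 with #2 (pseudocount of 1). By calls on TMM-scaled counts, KRT19, EPCAM and CDH1 rose with each combination while KRT18 fell with siYAP/TAZ#2. Of 6 markers of leukocytes, endothelium and fibroblasts, CD3E and CDH5 were too low to test and COL1A1, a fibroblast collagen, rose with siYAP/TAZ#1 (log2 change 0.47) and was not called with siYAP/TAZ#2 (0.09). The 6 summed to 31.6 to 44.9 TPM in siYAP/TAZ#1 and 23.6 to 37.9 in siYAP/TAZ#2, against 16.4 to 26.5 in siCo, and without COL1A1 the other 5 to 0.301 to 1.03 TPM in siYAP/TAZ#1 and 0.448 to 0.759 in siYAP/TAZ#2, against 0.153 to 0.365 in siCo. The part of these markers in the results was not tested.

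The scale sets the sign of many small changes here. On the deposited TPM (a share of all transcripts, which divides by length), 6 genes for short RNAs (MIR3648-1, MIR3648-2, MIR3687-1, MIR3687-2, MIR663A and MIR663AHG) held 27.3 to 64.7% of a library's total, with means of 46.6% in siYAP/TAZ#1, 44.3% in siYAP/TAZ#2 and 55.2% in siCo. Coding genes held 28.2 to 57.6% of it. Directions below are those of TMM-scaled counts, where the median log2 change of all genes tested was 0.02 with each combination. Of 160 changes named, 85 had the opposite sign on TPM as deposited, and 11 had the opposite sign relative to the median of all genes on that scale (pseudocount of 1).

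On TMM-scaled counts part of the large subunit genes were lower by small amounts with each combination and none were called higher, while on deposited TPM none were called lower. With siYAP/TAZ#1, 19 of 49 MRPL genes fell, 0 rose and 30 were not called (edgeR's quasi-likelihood test, Benjamini-Hochberg adjusted p under 0.05 over all genes), where 18.5% of all genes tested fell and 16.4% rose (34.9% either way). With siYAP/TAZ#2, 22 fell, 0 rose and 27 were not called, where 19.2% of all genes fell and 19% rose (38.2% either way). Among the protein-coding genes tested, 25.6% fell with #1 and 25.7% with #2. At an unadjusted p under 0.05 edgeR also had 0 higher with either combination, with 27 lower with #1 and 29 lower with #2, and DESeq2 called 22 lower with #1, 23 lower with #2 and 0 higher with either. The shares of all genes given here are for edgeR's adjusted p, so they are no background for those counts. The log2 change was negative for 45 of 49 MRPL genes with siYAP/TAZ#1 (median -0.20, interquartile range -0.28 to -0.13) and for 47 with siYAP/TAZ#2 (median -0.21, -0.25 to -0.14). Among all genes tested 47.8% were negative with #1 and 48.3% with #2. Both comparisons share the siCo libraries. In bulk RNA, fewer cells of a type and less RNA per cell cannot be told apart.

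Small subunit genes were also lower in part on TMM-scaled counts, with 1 gene higher, and on deposited TPM none were called lower. With siYAP/TAZ#1, 14 of 29 MRPS genes fell, 1 rose and 14 were not called, and with siYAP/TAZ#2, 15 fell, 1 rose and 13 were not called, read against the same shares of all genes. The gene that rose was MRPS28 with both. The median log2 change was -0.21 with siYAP/TAZ#1 (interquartile range -0.33 to -0.08) and -0.20 with siYAP/TAZ#2 (-0.38 to -0.10), with 24 of 29 negative with #1 and 25 with #2. Relative to the median of all genes, MRPL genes stood at -0.23 with each combination, and MRPS genes at -0.23 with siYAP/TAZ#1 and -0.22 with siYAP/TAZ#2. The same gaps on log2(TPM + 1) were -0.03 with #1 and -0.02 with #2 for MRPL and -0.01 with each for MRPS, and limma on that scale called 0 MRPL genes lower and 1 higher (MRPL34) and 0 MRPS genes either way with each combination. With a pseudocount of 0.1 the gaps were -0.17 with #1 and -0.18 with #2 for MRPL and -0.14 with #1 and -0.15 with #2 for MRPS, and limma called 0 genes of either subunit lower, MRPL34 higher with each combination and MRPS28 higher with siYAP/TAZ#2 (adjusted p = 0.0432). No gene of either subunit changed by a log2 of 1 or more.

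Libraries of the groups stood apart for part of the genes. All 4 siYAP/TAZ#1 libraries lay below all 4 siCo libraries for 23 MRPL and 15 MRPS genes, and above them for 0 MRPL and 1 MRPS gene, where 20.7% of all genes lay below and 18% above. All 4 siYAP/TAZ#2 libraries lay below siCo for 19 MRPL and 13 MRPS genes, and above for 1 MRPL and 1 MRPS gene, where 17.7% of all genes lay below and 17% above. The MRPL gene above was MRPL27, which was not called (log2 change 0.10). The library siYAP/TAZ#2 replicate 1 was the highest of its 4 for 20 and the lowest for 19 of the 49 MRPL genes, and the highest for 8 and the lowest for 16 of the 29 MRPS genes. Without it, 29 MRPL genes (59.2%) in place of 19 (38.8%) fell with siYAP/TAZ#1, where 22.3% of all genes fell in place of 18.5%.

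**Figure D1:**
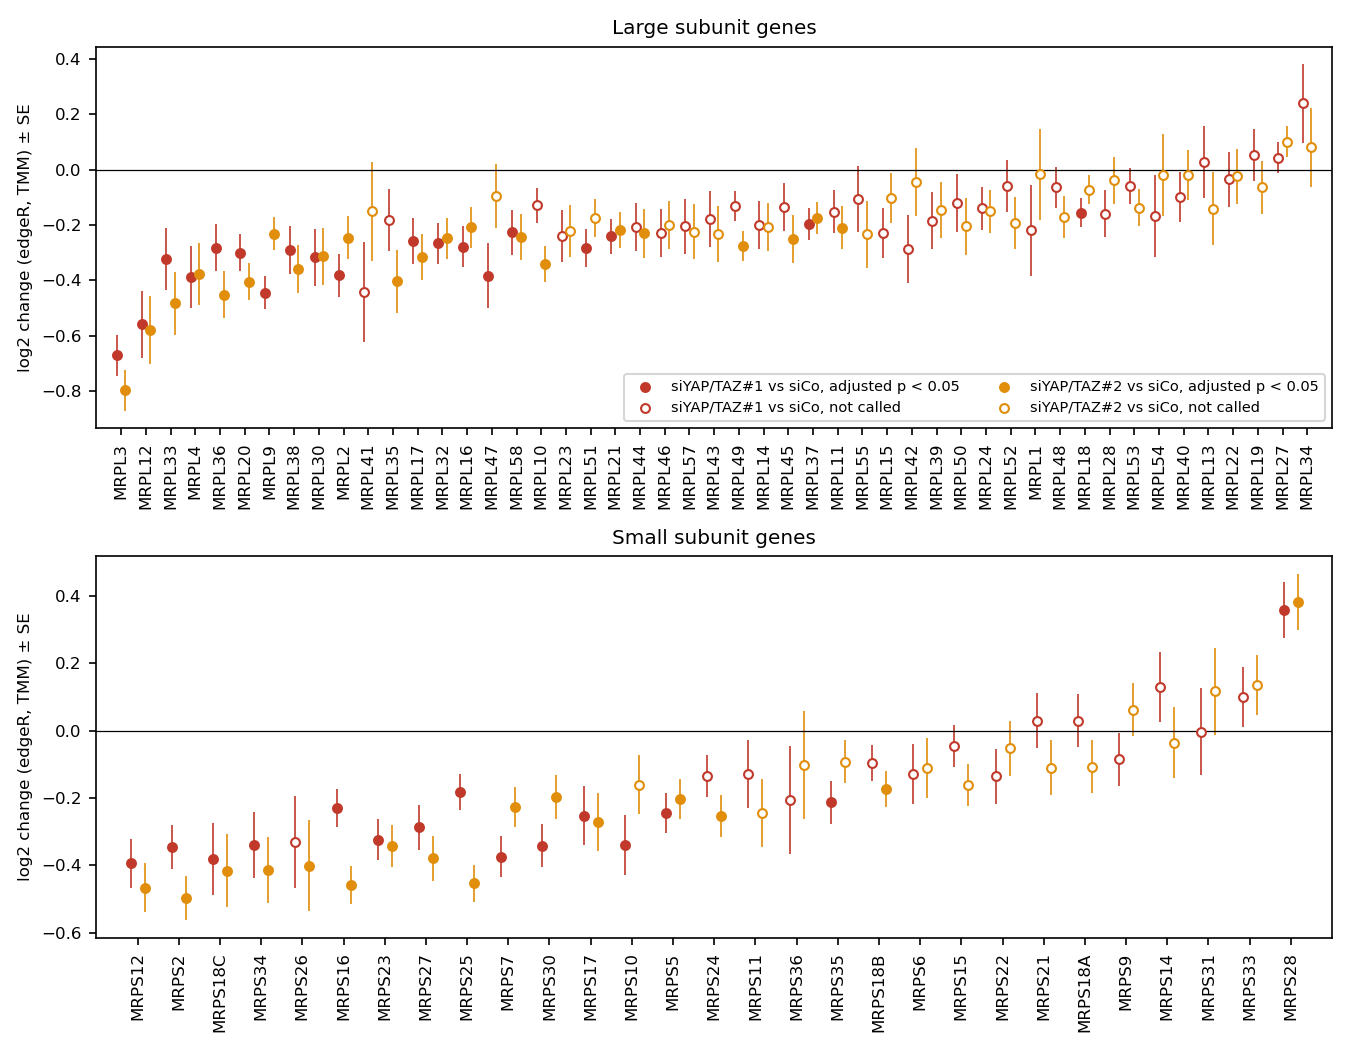
Log2 change against siCo on TMM-scaled counts for every MRPL and MRPS gene with siYAP/TAZ#1 and with siYAP/TAZ#2, with lines for ± SE and filled points for adjusted p under 0.05. Most changes are negative, and MRPL3 has the most negative with both combinations (-0.67 with #1 and -0.80 with #2). MRPS28 is the gene with filled points at positive values (0.36 with #1 and 0.38 with #2). On deposited TPM the mean summed levels of both subunits were higher in the treated groups, with overlapping libraries. Without siYAP/TAZ#1 replicate 4 alone, while siCo kept its replicate 4, those of #1 were lower (log2 ratio -0.061 for MRPL and -0.024 for MRPS).

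MRPL3, a protein of the large subunit encoded on chromosome 3 (131462212 to 131502983, minus strand, GRCh38), had the most negative change of the 78 genes with each combination. It had 48.5, 50, 47.3 and 56.6 CPM in siYAP/TAZ#1 and 40.3, 47.7, 47.0 and 50.4 CPM in siYAP/TAZ#2, against 78.9, 77.9, 80.1 and 85.2 CPM in siCo. The lowest siCo library thus exceeded the highest treated library, and no exon of MRPL3 overlaps another gene. The log2 change was -0.67 ± 0.074 (SE) with siYAP/TAZ#1 (adjusted p = 2.82e-06 by edgeR) and -0.80 ± 0.074 with siYAP/TAZ#2 (adjusted p = 3.69e-07), a level lower by 37.2% with #1 and 42.4% with #2. Its mean TPM was 34.6 ± 13.9 in #1 and 33.5 ± 12 in #2, against 42.4 ± 9.52 in siCo (SD, n = 4 each), so its mean was lower on that scale too. The TPM of the libraries overlapped, at 27.4 to 55.5 in #1 and 19.3 to 47.9 in #2, against 32.8 to 55.5 in siCo, and the change was not called there.

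MRPL12 forms the stalk of the large subunit, where translation factors dock, and binds POLRMT, the mitochondrial RNA polymerase. It lies on chromosome 17 (81703357 to 81707526, plus strand). It had 146, 171, 147 and 130 CPM in siYAP/TAZ#1 and 193, 128, 137 and 127 CPM in siYAP/TAZ#2, against 203, 221, 247 and 204 CPM in siCo. The groups do not overlap, although siYAP/TAZ#2 replicate 1 lay near siCo. The log2 change was -0.56 ± 0.121 with #1 (adjusted p = 0.0017) and -0.58 ± 0.121 with #2 (adjusted p = 0.00117) by edgeR. POLRMT itself was not called, at -0.31 with #1 (adjusted p = 0.057) and -0.22 with #2 (adjusted p = 0.16, by edgeR).

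The other stalk protein, MRPL10, anchors MRPL12 to the ribosome. It had 48.3, 50.2, 48.2 and 51.8 CPM in siYAP/TAZ#1 and 46.0, 38.7, 45.7 and 41.0 CPM in siYAP/TAZ#2, against 54.0, 51.1, 55.5 and 56.4 CPM in siCo. It fell with siYAP/TAZ#2 (-0.34 ± 0.065, adjusted p = 0.000529 by edgeR) and was not called with siYAP/TAZ#1 (-0.13 ± 0.064, adjusted p = 0.14), whose highest library overlaps the lowest siCo library.

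Further large subunit genes are the rest of the 8 with the largest fall shared by both combinations. MRPL4 averaged 64.1 ± 3.5 CPM in #1 and 64.5 ± 15 CPM in #2, against 83.8 ± 2.5 in siCo (log2 -0.39 with #1 and -0.38 with #2, adjusted p = 0.013 and 0.0139 by edgeR), and its siYAP/TAZ#2 replicate 1 at 86.0 CPM overlapped siCo. MRPL20 averaged 20.3 ± 1.2 CPM in #1 and 18.9 ± 0.886 CPM in #2, against 25 ± 1.37 in siCo (-0.30 with #1 and -0.40 with #2, adjusted p = 0.00239 and 0.00018). MRPL38 averaged 112 CPM in #1 and 107 CPM in #2, against 137 in siCo (-0.29 with #1 and -0.36 with #2). MRPL33 (-0.32 with #1 and -0.48 with #2), MRPL30 (-0.32 with #1 and -0.31 with #2) and MRPL36 (-0.28 with #1 and -0.45 with #2) complete the 8. Calls of MRPL33, MRPL30 and MRPL36 were lost when single libraries were left out. MRPL33 with siYAP/TAZ#1 was lost without siYAP/TAZ#1 replicate 1, 2 or 3 or siCo replicate 1, 2 or 4 (log2 change -0.26 to -0.33). MRPL30 was lost with siYAP/TAZ#1 without siYAP/TAZ#1 replicate 2 or 3 or siCo replicate 4, and with siYAP/TAZ#2 without siCo replicate 4 (-0.26 to -0.29), and MRPL36 with siYAP/TAZ#1 without siYAP/TAZ#1 replicate 1 or 4 or siCo replicate 2 (-0.23 to -0.26).

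MRPL58, the release factor ICT1 that became a ribosomal protein and frees peptides from stalled ribosomes, fell too (-0.23 with #1, adjusted p = 0.043, and -0.24 with #2, adjusted p = 0.028, by edgeR). MRPL34 (0.24 with #1 and 0.08 with #2) and MRPL27 (0.04 with #1 and 0.10 with #2) had positive changes with both combinations and were not called on TMM-scaled counts. MRPL41, the MRPL gene with the highest TPM, had 83.2, 106, 94.0 and 74.1 CPM in siYAP/TAZ#1 and 169, 78.1, 97.6 and 92.2 CPM in siYAP/TAZ#2, against 122, 116, 136 and 112 CPM in siCo. Its siYAP/TAZ#1 libraries all lay below siCo while its siYAP/TAZ#2 libraries spanned it, and neither change was called (-0.44 ± 0.181 with #1, adjusted p = 0.0715, and -0.15 ± 0.18 with #2, adjusted p = 0.564). MRPL27, MRPL34 and MRPL58 were chosen after their values were seen.

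**Figure D2:**
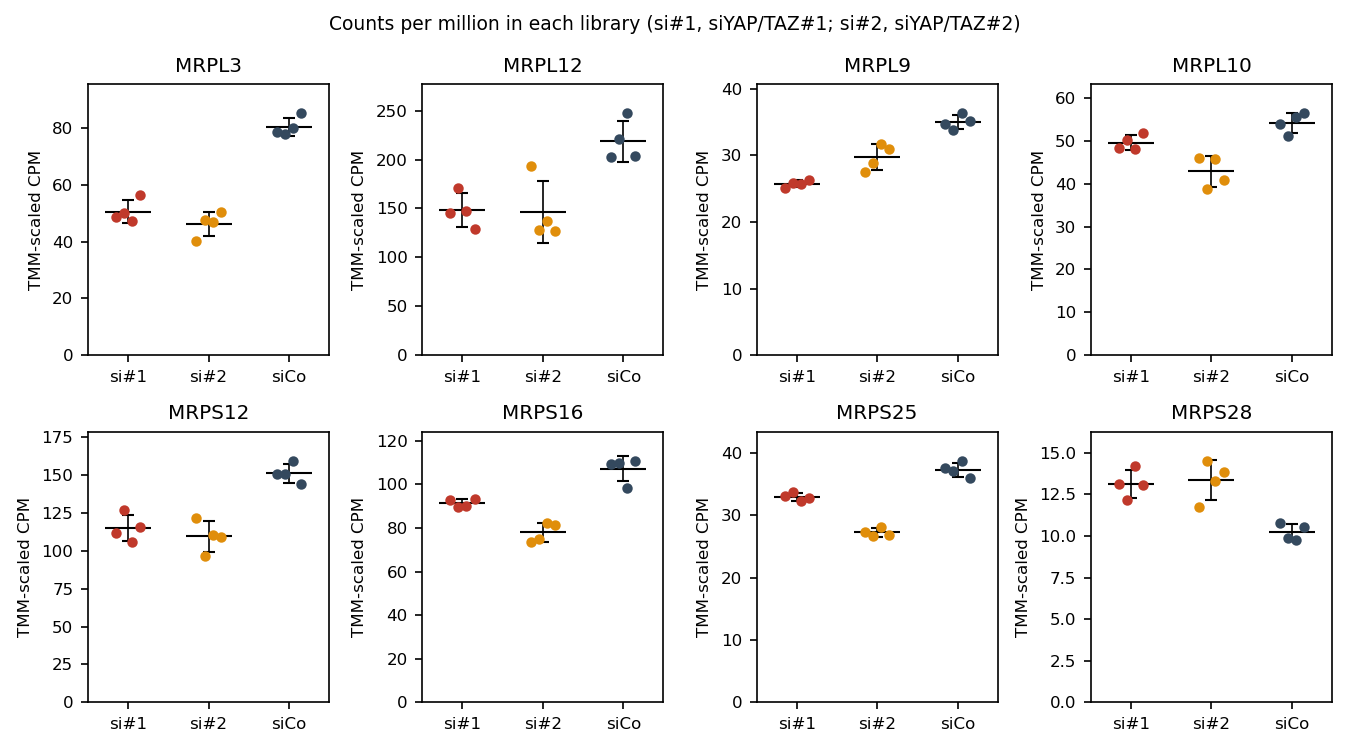
TMM-scaled CPM in each library for MRPL3, MRPL12, MRPL9, MRPL10, MRPS12, MRPS16, MRPS25 and MRPS28, with points for libraries and bars for the mean ± SD of 4, groups in the order siYAP/TAZ#1, siYAP/TAZ#2, siCo. MRPL3 shows a wide gap (47.3 to 56.6 CPM in #1 and 40.3 to 50.4 in #2, against 77.9 to 85.2 CPM in siCo), and MRPS28 is the panel where the treated libraries are higher.

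In the small subunit, MRPS12 belongs to the decoding centre and is the counterpart of the bacterial protein in which streptomycin resistance mutations arise. It lies on chromosome 19 (38930548 to 38933162, plus strand). It had 112, 127, 106 and 116 CPM in siYAP/TAZ#1 and 122, 96.2, 110 and 109 CPM in siYAP/TAZ#2, against 151, 151, 159 and 144 CPM in siCo, with no overlap. The log2 change was -0.39 ± 0.073 with #1 (adjusted p = 0.000458) and -0.47 ± 0.073 with #2 (adjusted p = 8.79e-05) by edgeR. Its mean TPM was nearly equal in all groups, at 113 ± 26.1 in #1 and 112 ± 24.8 in #2, against 113 ± 16.3 in siCo. Its exons overlap SARS2 on the opposite strand, which was not called (-0.12 with #1 and -0.08 with #2).

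MRPS2, a protein conserved from bacteria, had 77.6, 79.2, 70.6 and 70.5 CPM in siYAP/TAZ#1 and 70.7, 63.6, 68.3 and 65.4 CPM in siYAP/TAZ#2, against 100, 85.5, 98.5 and 93.9 CPM in siCo, again with no overlap. Its log2 change was -0.35 ± 0.065 with #1 (adjusted p = 0.000535) and -0.50 ± 0.065 with #2 (adjusted p = 1.49e-05) by edgeR. MRPS23 averaged 29.2 CPM in #1 and 28.8 CPM in #2, against 36.6 CPM in siCo (-0.32 with #1 and -0.34 with #2, adjusted p = 0.000625 and 0.000338). MRPS27, a PPR-type protein, averaged 71.9 CPM in #1 and 67.4 CPM in #2, against 87.7 CPM in siCo (-0.29 with #1 and -0.38 with #2, adjusted p = 0.00288 and 0.000264). MRPS34 averaged 67.3 CPM in #1 and 64.0 CPM in #2, against 85.2 CPM in siCo (-0.34 with #1 and -0.41 with #2, adjusted p = 0.0125 and 0.00311), and MRPS17 averaged 11.9 CPM in #1 and 11.8 in #2, against 14.2 CPM in siCo (-0.25 with #1 and -0.27 with #2). Both MRPS17 calls were lost when single libraries were left out: with siYAP/TAZ#1 leaving out siYAP/TAZ#1 replicate 1, 2 or 3 or any siCo library ended it (-0.23 to -0.26), and with siYAP/TAZ#2 leaving out siYAP/TAZ#2 replicate 4 or siCo replicate 3 (-0.22 and -0.26).

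The MRPS18 name is shared by 3 genes, and their products are placed differently in the ribosome. MRPS18A sits in the large subunit, while MRPS18B and MRPS18C are small subunit proteins. MRPS18C averaged 5.23 CPM in #1 and 5.10 CPM in #2, against 6.80 CPM in siCo, and fell with both (-0.38 with #1, adjusted p = 0.0111, and -0.42 with #2, adjusted p = 0.00592, by edgeR). MRPS18B averaged 47.8 CPM in #1 and 45.3 CPM in #2, against 51.1 CPM in siCo, and fell with siYAP/TAZ#2 (-0.17, adjusted p = 0.0173), its change with siYAP/TAZ#1 being -0.10 (adjusted p = 0.19) and the difference not called. That call was lost without siYAP/TAZ#2 replicate 4 (-0.15) or siCo replicate 3 (-0.16). MRPS18A averaged 28.6 CPM in #1 and 26.0 CPM in #2, against 28.0 CPM in siCo, and was not called (0.03 with #1 and -0.11 with #2). MRPS30, which also sits in the large subunit despite its name, had 40.8, 42.2, 37.8 and 42.6 CPM in siYAP/TAZ#1 and 41.6, 45.5, 43.4 and 50 CPM in siYAP/TAZ#2, against 51.2, 51.6, 50.7 and 53.5 CPM in siCo. It fell with both (log2 change -0.34 with #1, adjusted p = 0.000564, and -0.20 with #2, adjusted p = 0.0236), and the siYAP/TAZ#2 call was lost without siYAP/TAZ#2 replicate 3 (-0.18) or siCo replicate 4 (-0.17).

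MRPS28 was the one mitochondrial ribosomal protein gene called higher, and its mean was higher on every scale used. It had 13.1, 12.1, 14.2 and 13 CPM in siYAP/TAZ#1 and 11.7, 14.5, 13.3 and 13.9 CPM in siYAP/TAZ#2, against 10.8, 9.89, 9.75 and 10.5 CPM in siCo. All 8 treated libraries exceeded all 4 siCo libraries. The log2 change was 0.36 ± 0.083 with #1 (adjusted p = 0.00267) and 0.38 ± 0.083 with #2 (adjusted p = 0.00147) by edgeR, a level higher by 28.3% with #1 and 30.5% with #2. Its mean TPM was 19.6 ± 3.95 in #1 and 20.7 ± 6.7 in #2, against 11.9 ± 3.05 in siCo, and limma called it with siYAP/TAZ#2 on log2(TPM + 0.1) but with neither combination on log2(TPM + 1). Its exons share bases on the same strand with AC036214.3.

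Set against each other, a contrast in which siCo does not enter, the combinations differed for 4 of the 78 genes. In siYAP/TAZ#2 against siYAP/TAZ#1, 1 MRPL gene was lower and 1 higher, and 2 MRPS genes were lower and 0 higher, where 6.92% of all genes were lower and 8.2% higher by edgeR (15.1% either way). At an unadjusted p under 0.05, 3 MRPS genes were lower and 2 higher, and DESeq2 called 2 lower and 0 higher. The shares above, being for edgeR's adjusted p, are no background for those counts. The median log2 change was -0.01 for MRPL and -0.04 for MRPS. The groups did not overlap for 1 MRPL gene lower and 2 higher and for 4 MRPS genes lower and 0 higher, where 8.91% of all genes lay below and 9.31% above. Without siYAP/TAZ#2 replicate 1, the calls numbered 4 MRPL lower, 3 MRPL higher, 6 MRPS lower and 3 MRPS higher, where 10.3% of all genes were lower and 12.8% higher.

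MRPL9 had 25.1, 25.8, 25.7 and 26.3 CPM in siYAP/TAZ#1 and 27.6, 28.9, 31.8 and 31 CPM in siYAP/TAZ#2, against 34.8, 33.8, 36.3 and 35.1 CPM in siCo, so that the 3 groups do not overlap. It fell with both (-0.44 ± 0.061 with #1, adjusted p = 2.6e-05, and -0.23 ± 0.06 with #2, adjusted p = 0.00606, by edgeR) and was higher in siYAP/TAZ#2 than in siYAP/TAZ#1 (0.21 ± 0.061, adjusted p = 0.025). MRPL10 was lower in siYAP/TAZ#2 than in siYAP/TAZ#1 (-0.21 ± 0.065, adjusted p = 0.037). Both differences were lost when single libraries were left out: MRPL9 without siYAP/TAZ#1 replicate 1 or 3 or siYAP/TAZ#2 replicate 3 or 4 (0.18 to 0.21), and MRPL10 without any siYAP/TAZ#1 library, siYAP/TAZ#2 replicate 2 or 4 or siCo replicate 1 or 3 (-0.16 to -0.22).

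MRPS16, a small subunit protein mutated in an inherited respiratory chain deficiency, had 92.8, 89.7, 90.2 and 93.1 CPM in siYAP/TAZ#1 and 73.4, 75.2, 82.1 and 81.3 CPM in siYAP/TAZ#2, against 109, 110, 98.5 and 111 CPM in siCo. It fell with both (-0.23 ± 0.057 with #1, adjusted p = 0.00488, and -0.46 ± 0.058 with #2, adjusted p = 9.47e-06, by edgeR), and more with siYAP/TAZ#2 (difference -0.23 ± 0.057, adjusted p = 0.011). Its exons share bases with DNAJC9 on the same strand, whose log2 changes were -0.88 with #1 and -0.48 with #2. MRPS25 had 33, 33.7, 32.2 and 32.7 CPM in siYAP/TAZ#1 and 27.4, 26.6, 28.1 and 26.8 CPM in siYAP/TAZ#2, against 37.5, 37.0, 38.7 and 36.0 CPM in siCo. It also fell with both (-0.18 ± 0.053 with #1, adjusted p = 0.0141, and -0.45 ± 0.054 with #2, adjusted p = 5.26e-06), with a difference of -0.27 ± 0.054 (adjusted p = 0.0019) between them. The 3 groups of MRPS25 and of MRPS16 do not overlap.

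Levels between genes can be compared on TPM, which divides by length. In siCo the mean TPM ran from 2.98 ± 0.566 (MRPL50) to 205 ± 27.6 (MRPL41) across MRPL genes, a 68.7-fold range with a median of 23.6, and from 2.78 ± 0.703 (MRPS36) to 113 ± 16.3 (MRPS12) across MRPS genes, a 40.9-fold range with a median of 20.5. Below MRPL41 came MRPL12 at 162 ± 17.9 TPM and MRPL23 at 73.2 ± 10.4 TPM in siCo. The libraries of MRPL41 (178 to 234 TPM) and MRPL12 (143 to 186 TPM) overlap, while MRPL23 (61.3 to 85.0 TPM) lies below both. Below MRPS12 came MRPS24 at 92.4 ± 16.1 TPM and MRPS2 at 74.9 ± 16.2 TPM, neighbours whose libraries overlap. The lowest were MRPL50 and MRPL1 (4.08 ± 1.83 TPM), and MRPS36 and MRPS14 (3.35 ± 1.04 TPM), and neither pair is apart beyond its spread. MRPS36 is now regarded as a part of the alpha-ketoglutarate dehydrogenase complex. MRPS24 fell with siYAP/TAZ#2 (-0.25, adjusted p = 0.0047 by edgeR) and was not called with siYAP/TAZ#1 (-0.13, adjusted p = 0.119), while MRPL1, MRPL23, MRPL50, MRPS14 and MRPS36 were not called with either.

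The order of the levels was almost the same in every group. Spearman's rho between mean TPM in treated cells and in siCo was 0.980 with siYAP/TAZ#1 and 0.983 with siYAP/TAZ#2 over 49 MRPL genes, and 0.985 with #1 and 0.989 with #2 over 29 MRPS genes. The log2 change and the siCo TPM had a rho of -0.19 with #1 and -0.23 with #2 across MRPL genes and of -0.40 with #1 and -0.65 with #2 across MRPS genes, so that among MRPS genes the higher ones had the more negative changes. The rho with the GC content was -0.19 with each for MRPL and -0.18 with #1 and -0.50 with #2 for MRPS. With length it was 0.23 with #1 and -0.01 with #2 for MRPL and -0.11 with #1 and -0.17 with #2 for MRPS. These are descriptions across genes that share the same libraries, depth and siCo values.

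**Figure D3:**
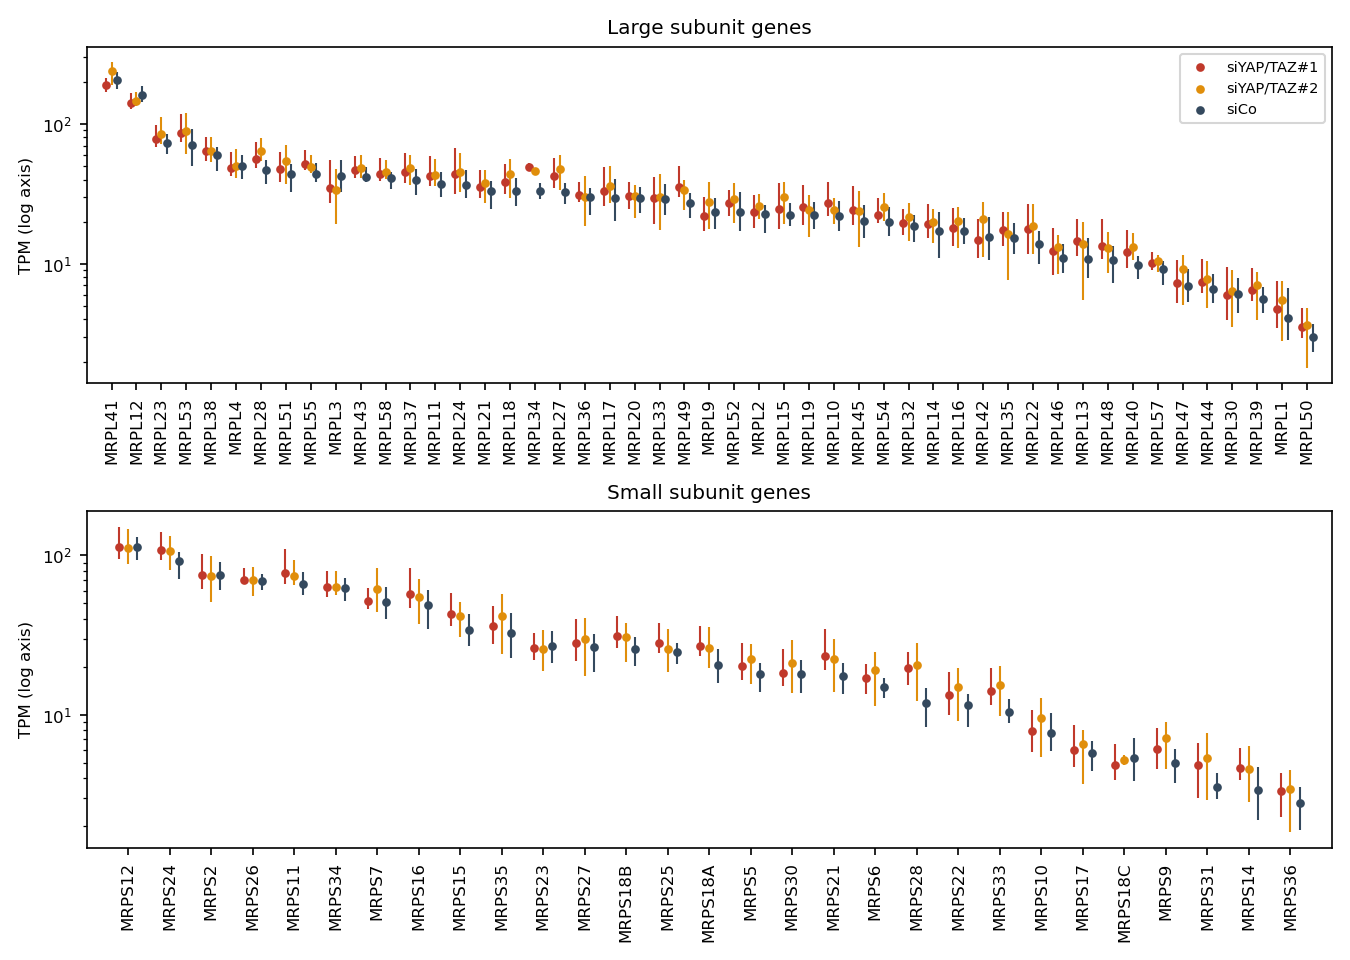
Mean TPM of every MRPL and MRPS gene in each group (dots) with lines from the lowest to the highest library of 4, on a log axis and sorted by siCo. The levels span 2.98 to 205 TPM (MRPL) and 2.78 to 113 TPM (MRPS) in siCo, and the 3 groups follow each other closely along the order.

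Summed over a subunit, the change depended on the scale. On TMM-scaled CPM the MRPL genes summed to 1693 ± 35.5 in siYAP/TAZ#1 and 1689 ± 123 in siYAP/TAZ#2, against 2022 ± 43.4 in siCo, and the MRPS genes to 1175 ± 26.3 in #1 and 1129 ± 50.5 in #2, against 1383 ± 17 in siCo (SD, n = 4 each). No treated library reached the lowest siCo library, at 1976 for MRPL and 1370 for MRPS. Scaled to the summed TPM of coding genes, a scale added after seeing the data, MRPL genes summed to 4145 ± 90.4 in #1 and 4264 ± 202 in #2, against 4562 ± 81.8 in siCo, and MRPS genes to 2373 ± 35.8 in #1 and 2300 ± 36.2 in #2, against 2534 ± 52.4 in siCo. There, 1 siYAP/TAZ#2 library (4553) overlapped siCo (lowest 4471) for MRPL. On TPM as deposited the order was turned, with MRPL sums of 1745 ± 367 in #1 and 1870 ± 353 in #2, against 1629 ± 271 in siCo, and MRPS sums of 1001 ± 221 in #1 and 1016 ± 231 in #2, against 906 ± 154 in siCo, and the groups overlapped. Leaving out siYAP/TAZ#1 replicate 4 alone gave a log2 ratio of summed TPM of -0.061 for MRPL and -0.024 for MRPS in place of 0.10 and 0.14. Replicate 4 had the highest sums of every group (MRPL 2292 in #1, 2357 in #2 and 1960 in siCo). Leaving it out of every group at once was not done. The ratio of MRPL to MRPS TPM, in which the scale cancels, was 1.75 ± 0.024 in #1 and 1.85 ± 0.108 in #2, against 1.80 ± 0.052 in siCo.

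**Figure D4:**
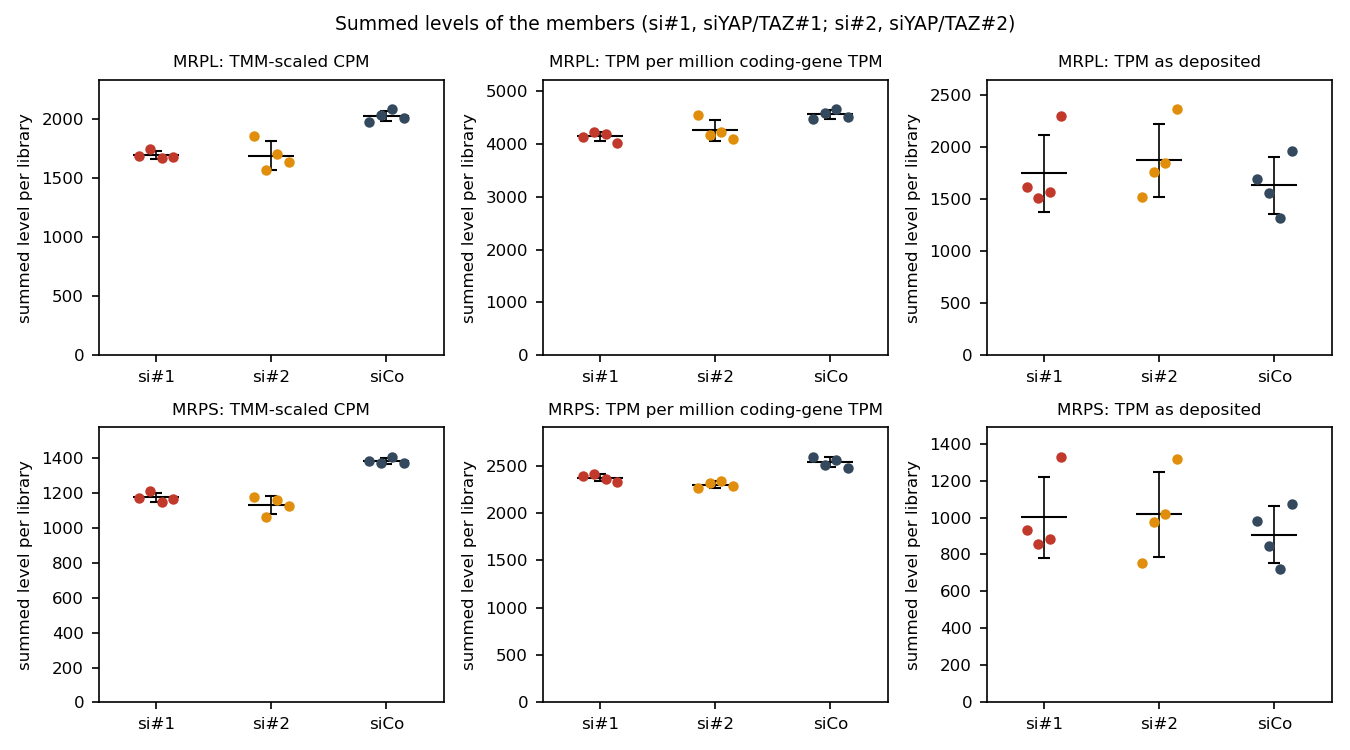
Summed level of MRPL and of MRPS genes per library on 3 scales (TMM-scaled CPM, TPM scaled to coding genes, TPM as deposited), with points for libraries and bars for mean ± SD of 4, groups in the order siYAP/TAZ#1, siYAP/TAZ#2, siCo. The treated libraries lie below siCo on TMM-scaled CPM (MRPL 1693 in #1 and 1689 in #2 against 2022 in siCo) and overlap it, with higher means, on TPM as deposited (1745 in #1 and 1870 in #2 against 1629 in siCo).

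Genes that work with the mitochondrial ribosome were set beside these results from lists taken up with earlier results known. Their counts are read against the 18.5% of all genes that fell and 16.4% that rose with siYAP/TAZ#1, and the 19.2% that fell and 19% that rose with siYAP/TAZ#2. Of the protein-coding genes tested, 25.6% fell and 19.5% rose with #1, and 25.7% fell and 23.3% rose with #2. All are calls on TMM-scaled counts. The 156 changes named (those of YAP1 and WWTR1 apart) include changes that were not called and had no call to lose. Among them, 62 lost a call but kept their sign on TPM scaled to coding genes. On log2(TPM + 1), 110 lost a call but kept their sign relative to the median of all genes, and a call also had to have that sign. Not counted in these are calls lost with a turned sign: MTIF2 with siYAP/TAZ#2 on both scales and MRPS16 with siYAP/TAZ#1 on log2(TPM + 1). Of 5 mitochondrial ribosomal proteins under other symbols, 1 fell with each combination, DAP3, the GTP-binding protein of the small subunit (-0.23 with #1, adjusted p = 0.0067, and -0.21 with #2, adjusted p = 0.01, by edgeR). Of 28 assembly and rRNA modification factors, 15 fell (53.6%) and 1 rose with siYAP/TAZ#1, and 15 fell and 0 rose with siYAP/TAZ#2 (0 higher at an unadjusted p under 0.05 and by DESeq2). MALSU1, which keeps the subunits apart during large subunit assembly, changed by -0.65 with #1 and -0.52 with #2, the rRNA methyltransferase MRM3 by -0.42 with #1 and -0.45 with #2, and RCC1L, a large subunit assembly factor, by -0.34 with #1 and -0.43 with #2. NGRN, which takes part in 16S rRNA stability, averaged 137 ± 2.05 CPM in #1 and 72.0 ± 2.26 CPM in #2, against 177 ± 4.74 CPM in siCo, with log2 changes of -0.37 with #1 and -1.30 with #2 and a difference of -0.93 between the combinations (adjusted p = 1.5e-09).

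Of 15 translation factors, 9 fell with siYAP/TAZ#1 (60%, against 18.5% of all genes) and 8 with siYAP/TAZ#2 (53.3%, against 19.2%), and 0 rose (0 higher at an unadjusted p under 0.05 and by DESeq2). The initiation factor MTIF2 changed by -0.51 with #1 and -0.32 with #2, the elongation factor partner TSFM by -0.32 with #1 and -0.37 with #2, and the release factor MTRF1L by -0.37 with #1 and -0.18 with #2. The MTRF1L call with siYAP/TAZ#2 was lost without siYAP/TAZ#1 replicate 2, siYAP/TAZ#2 replicate 3 or 4, or siCo replicate 2, 3 or 4 (-0.16 to -0.19) and with the replicate number as a block (adjusted p = 0.0577). GFM2, the ribosome recycling factor, fell with siYAP/TAZ#1 (-0.55) and was at -0.20, not called, with siYAP/TAZ#2, a difference of 0.35 (adjusted p = 0.013 by edgeR). Of 20 mitochondrial aminoacyl-tRNA synthetases and amidotransferase subunits, 9 fell and 0 rose with siYAP/TAZ#1 (2 higher at an unadjusted p under 0.05, 0 by DESeq2), and 7 fell and 2 rose with siYAP/TAZ#2. The share that fell was 45% with #1, against 18.5% of all genes, and 35% with #2, against 19.2%, and 10% rose with #2, against 19% of all genes. Among them MARS2 changed by -0.54 with #1 and -0.97 with #2, NARS2 by -0.36 with #1 and -0.69 with #2, EARS2 by -0.39 with #1 and -0.25 with #2, and YARS2 by -0.33 with #1 and -0.37 with #2.

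Of 11 genes of mitochondrial DNA maintenance and transcription, 5 fell and 0 rose with siYAP/TAZ#1 (0 higher at an unadjusted p under 0.05 and by DESeq2), and 5 fell and 1 rose with siYAP/TAZ#2. The share that fell was 45.5% with each, against 18.5% of all genes with #1 and 19.2% with #2. The helicase TWNK changed by -0.51 with #1 and -0.69 with #2, the transcription factor TFB2M by -0.47 with #1 and -0.42 with #2, the mRNA stability factor LRPPRC by -0.37 with #1 and -0.33 with #2, and the polymerase POLG by -0.23 with #1 and -0.30 with #2. The POLG call with siYAP/TAZ#1 was lost without siYAP/TAZ#1 replicate 1, 3 or 4 or siCo replicate 1, 2 or 3 (-0.20 to -0.23). TFAM, which packages mitochondrial DNA, was chosen after its values were seen: it averaged 10.2 ± 0.531 CPM in siYAP/TAZ#1 and 40.2 ± 5.3 in siYAP/TAZ#2, against 20.1 ± 1.6 in siCo, with log2 changes of -0.99 with #1 (adjusted p = 7.1e-07) and 1.00 with #2 (adjusted p = 3e-07, by edgeR). Its log2 difference between the combinations was 1.98, called higher in siYAP/TAZ#2.

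RNAs from mitochondrial DNA, which the mitochondrial ribosome contains or reads, were not called. Of 13 mRNAs from mitochondrial DNA, 0 fell and 0 rose with either combination by edgeR, with 2 higher with #1 and 0 with #2 at an unadjusted p under 0.05, and 0 called by DESeq2. Their median log2 change was 0.14 with #1, 12 of 13 being positive, and 0.22 with #2, 13 of 13 being positive. MT-ND3, a complex I subunit, stood at 0.46 with #1 and 0.35 with #2, and MT-CO2, a complex IV subunit, at 0.22 with each. Neither of the 2 mitochondrial rRNAs was called (0 at an unadjusted p under 0.05 and 0 by DESeq2).

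Nuclear genes of the respiratory chain, of which 84 of 89 were tested, gave 10 lower and 2 higher with siYAP/TAZ#1 and 13 lower and 2 higher with siYAP/TAZ#2, with medians of -0.03 with #1 and -0.06 with #2. The shares that fell, 11.9% with #1 and 15.5% with #2, lay below those of all genes (18.5% with #1 and 19.2% with #2), and so did the 2.38% that rose with each (all genes 16.4% with #1 and 19% with #2). ATP5MC1, a subunit of the ATP synthase ring, changed by -0.46 with #1 and -0.33 with #2, the complex III subunit UQCRFS1 by -0.24 with #1 and -0.29 with #2, and the complex I subunit NDUFA7 by 0.47 with #1 and 0.43 with #2. SDHD, a complex II subunit, was at -0.16, not called, with siYAP/TAZ#1 and at -0.49, called lower, with siYAP/TAZ#2, a difference of -0.33. Among 79 cytosolic ribosomal protein genes, 12 fell with siYAP/TAZ#1 and 38 with siYAP/TAZ#2, and 0 rose (0 higher at an unadjusted p under 0.05 and by DESeq2), with medians of -0.11 with #1 and -0.20 with #2. The share that fell was 15.2% with #1, below the 18.5% of all genes, and 48.1% with #2, above the 19.2% of all genes. RPL9 changed by -0.40 with #1 and -0.37 with #2, RPL14 by -0.32 with #1 and -0.45 with #2, RPL23 by -0.24 with #1 and -0.27 with #2 and RPS2 by -0.19 with #1 and -0.34 with #2, where the RPS2 call with siYAP/TAZ#1 was lost without siYAP/TAZ#1 replicate 3 or siCo replicate 2 (-0.18 each).

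Of 10 regulators of nuclear mitochondrial genes, 8 fell and 1 rose with siYAP/TAZ#1 (18.5% and 16.4% of all genes) and 6 fell and 1 rose with siYAP/TAZ#2 (19.2% and 19% of all genes). PPRC1, a coactivator of the PGC-1 family, averaged 162 ± 3.95 CPM in #1 and 158 ± 9.41 CPM in #2, against 257 ± 2.51 CPM in siCo (-0.66 with #1, adjusted p = 8.2e-08, and -0.70 with #2, adjusted p = 3.6e-08, by edgeR). Its relative PPARGC1B changed by -0.36 with #1 and -0.46 with #2, while PPARGC1A rose at a low level, with 1.55 CPM in #1 and 1.5 in #2, against 0.547 CPM in siCo (1.53 with #1 and 1.48 with #2). MYC, a regulator of growth and ribosome genes, averaged 184 ± 6.23 CPM in #1 and 122 ± 19.1 CPM in #2, against 297 ± 9.32 CPM in siCo (-0.69 with #1 and -1.28 with #2, difference -0.59). Of the other factors on this list whose words were searched in the promoters, YY1 changed by -0.38 with #1 and -0.44 with #2 and the GABP subunit GABPA by -0.22 with #1 and -0.64 with #2 (difference -0.43). NRF1, named for its word, was not called (-0.15 each). SP1 and the TEAD factors, whose words were also searched, are not on this list. The GABPA call with siYAP/TAZ#1 (adjusted p = 0.043) was lost without any siYAP/TAZ#1 library, siYAP/TAZ#2 replicate 2 or 4, or siCo replicate 1, 2 or 4 (-0.17 to -0.24) and with the replicate number as a block (adjusted p = 0.0528).

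Of 10 mitochondrial chaperones and proteases, 8 fell with siYAP/TAZ#1 (18.5% of all genes) and 5 with siYAP/TAZ#2 (19.2% of all genes), and 0 rose (0 higher at an unadjusted p under 0.05 and by DESeq2). The matrix HSP70 HSPA9, which pulls imported proteins in, changed by -0.37 with #1 and -0.40 with #2, the chaperone TRAP1 by -0.37 with #1 and -0.50 with #2, and AFG3L2, of the inner membrane protease that in mouse and yeast matures MRPL32, by -0.34 with #1 and -0.38 with #2. CLPP, the matrix protease, averaged 27.9 ± 1.61 CPM in #1 and 54.0 ± 7.24 CPM in #2, against 60.5 ± 3.26 CPM in siCo. It fell with siYAP/TAZ#1 (-1.12) and was at -0.16, not called, with siYAP/TAZ#2, a difference of 0.95 (adjusted p = 5.26e-07 by edgeR). MRPL32, chosen after its values were seen, fell with both (-0.27 with #1, adjusted p = 0.0088, and -0.25 with #2, adjusted p = 0.013).

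**Figure D5:**
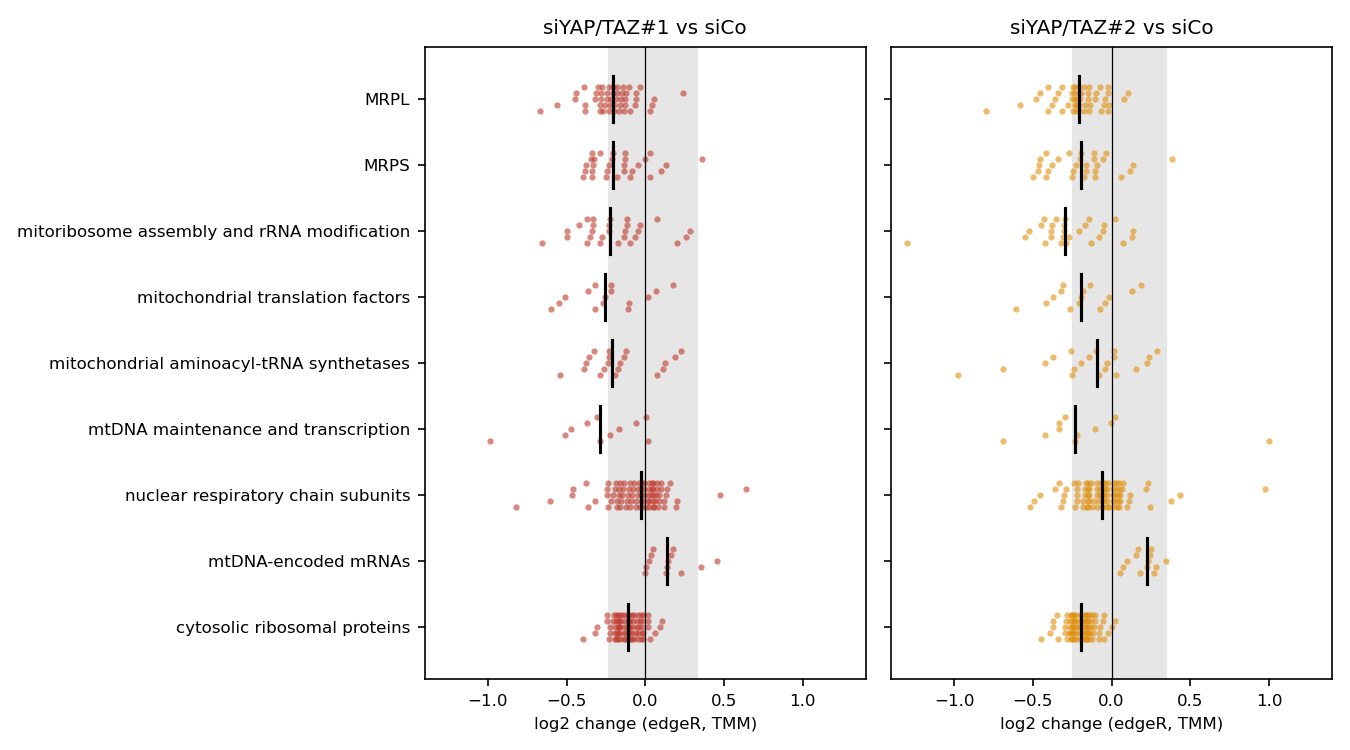
Log2 change against siCo on TMM-scaled counts for the genes of 9 lists, one panel per combination (siYAP/TAZ#1, then siYAP/TAZ#2), with a point per gene, a black bar for the list's median and a grey band for the interquartile range of all genes tested. The MRPL and MRPS medians lie near -0.20, those of respiratory chain genes near 0 (-0.03 with #1 and -0.06 with #2) and those of mRNAs from mitochondrial DNA above 0 (0.14 with #1 and 0.22 with #2). On deposited TPM the mean summed MRPL and MRPS levels were higher in the treated groups, with overlapping libraries. Without siYAP/TAZ#1 replicate 4 alone, while siCo kept its replicate 4, the sign with #1 was the opposite.

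Many of the 78 genes overlap others, and whether strand was used in counting is not given in the sources used here, so reads of overlapping genes may not be told apart. In GENCODE, 41 of the 78 share exonic bases with another gene, 16 of them on the same strand and 29 on the opposite one, some on both, and 37 share none. Among the 25 MRPL genes without overlap, 7 fell with siYAP/TAZ#1 (28%, against 38.8% of all 49 MRPL genes and 18.5% of all genes) and 9 with siYAP/TAZ#2 (36%, against 44.9% and 19.2%), with medians of -0.18 with #1 and -0.21 with #2. Among the 12 such MRPS genes, 5 fell with each (41.7%, against 48.3% of all 29 MRPS genes with #1 and 51.7% with #2), with medians of -0.21 with #1 and -0.16 with #2. Of all protein-coding genes tested, 25.6% fell with #1 and 25.7% with #2, and the 28% of MRPL genes with #1 lay close to that. Of 75 pseudogenes named after these genes, 5 passed the filter, and pseudogenes held 0.185 to 0.326% of the summed counts of the family in a library.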

How the data were processed

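RNA of 12 A549 libraries (NucleoSpin RNA II, RIN above 7, BGISEQ-500) was sequenced, per the labels' protocols. Tools listed, without roles, in the submitters' processing notes are kallisto 0.4.6 and Trim Galore 0.6.4, and the build is GRCh38.p13. The deposited tables hold estimated counts per gene, which need not be whole, and TPM per gene, as the authors made them, and how transcripts were summed to genes and whether strand was used are not given in the sources used here. Estimated counts were rounded to whole numbers. Genes were kept by filterByExpr (a count of 10 is 0.25 to 0.375 CPM here), scaled by TMM and fitted with edgeR 4.0.16 (quasi-likelihood test, group as the only factor, all 12 libraries, R 4.3.3), with Benjamini-Hochberg adjustment over all 21581 genes and a threshold of 0.05. The common biological coefficient of variation was 0.105. Scripts were tested on simulated counts. The same fit gave all 3 contrasts, and DESeq2 1.42.0, limma 3.58.1 on log2(TPM + 1) and log2(TPM + 0.1), other scalings, filters and left-out libraries were alternatives. Gene types, places and overlaps came from GENCODE release 29, in which 58444 of the listed identifiers were found, and promoters from RefSeq (GRCh38.p14). No 2 replicates of a group agreed within sampling noise (chi-square per degree of freedom 3.40 to 65.5). Replicate numbers did not pair the libraries throughout: deviations of same-numbered libraries correlated at -0.153 to 0.208. The highest values were those of replicate 4 (0.148 to 0.208), and the main fit held no term for the number.

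The members and lists were chosen with earlier results of these data known. Within each subunit the text names up to 8 genes that fell and 4 that rose with both combinations, ranked by the smaller change, up to 4 that differed between the combinations, the 3 highest and 2 lowest by siCo TPM, the MRPS18 genes, MRPS30 and MRPL12, and up to 4 genes with the lowest p of each other list. Other genes are said to be chosen after their values were seen, or were added outside the rule without that remark. Among the latter are POLRMT, PPARGC1A, YY1, NRF1, the cell type markers and genes that share exons with a member.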

Additional observations from a re-analysis of the deposited data

Results flagged for a closer look

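In groups of 4 libraries, 117 were looked at for a library that stands far from the other 3 (gap over range above Dixon's critical value), and 10 were found, where chance gives about 1 in 20. Library siYAP/TAZ#2 replicate 1 stood high at 193 CPM for MRPL12 and at 133 CPM for MRPL38 (others 98.7, 99.9 and 97.4), and at 2.02 for the ratio of MRPL to MRPS TPM (others 1.80, 1.81 and 1.79). Library siYAP/TAZ#1 replicate 4 stood high at 6.07 CPM for MRPL1 (others 4.87, 4.70 and 4.85) and at 2292 and 1329 for the summed TPM of MRPL and MRPS genes (others 1507 to 1610 and 859 to 931). Library siYAP/TAZ#1 replicate 2 stood low for MRPS23 at 27.9 CPM (others 29.6 to 29.7). In siCo, replicate 4 stood low for MRPL38 at 126 CPM (others 140 to 142), replicate 3 for MRPS16 at 98.5 CPM (others 109 to 111) and replicate 1 for the ratio of MRPL to MRPS TPM at 1.72 (others 1.82 to 1.83).

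The effects of the combinations differed by edgeR's test of siYAP/TAZ#2 against siYAP/TAZ#1 for 12 of the genes named by the rule above. The log2 difference was 0.21 for MRPL9, -0.21 for MRPL10, -0.23 for MRPS16 and -0.27 for MRPS25. Among genes of the other lists it was -0.93 for NGRN, 0.35 for GFM2, -0.43 for MARS2, -0.33 for NARS2, -0.33 for SDHD, -0.59 for MYC, -0.43 for GABPA and 0.95 for CLPP. TFAM, which the rule does not name, had a larger difference (1.98, called higher in siYAP/TAZ#2). Both groups are siRNA combinations against the same pair of genes.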

How the results depend on the processing

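Small fold changes, 4 libraries a group and the scale limit these results. Counts below are lower, then higher. With library size alone, in which the median of all genes was 0.20 with siYAP/TAZ#1 and 0.21 with siYAP/TAZ#2, MRPL gave 3 and 2 with siYAP/TAZ#1 and 5 and 1 with siYAP/TAZ#2, MRPS 3 and 2, and 5 and 3, and all genes 1905 and 5876, and 2037 and 6538. Relative to that median the gap of both subunits was the same as with TMM to 2 decimals or nearly so (-0.23 and -0.23 for MRPL, -0.23 and -0.21 for MRPS). On log2(TPM + 1) by limma MRPL gave 0 and 1 with each combination, MRPS 0 and 0, and all genes 156 and 1736 with siYAP/TAZ#1 and 198 lower with siYAP/TAZ#2, and with a pseudocount of 0.1 MRPL 0 and 1 with each, MRPS 0 and 0 with siYAP/TAZ#1 and 0 and 1 with siYAP/TAZ#2, and all genes 172 and 2137, and 207 lower. On TPM scaled to coding genes, added after seeing the data, MRPL gave 3 lower with siYAP/TAZ#1 and 6 and 1 with siYAP/TAZ#2, MRPS 3 lower, and 5 and 2, and all genes 1738 and 1851 lower. GC offsets, added too, gave 32 MRPL lower with siYAP/TAZ#1, an adjusted p under 0.01 gave 9 and 11 MRPL and 9 MRPS lower with siYAP/TAZ#1, and a fit of only the groups compared gave 1 MRPL higher with siYAP/TAZ#1. Counts of all genes against siCo in these settings are not given here, so these member counts have no background. In siYAP/TAZ#2 against siYAP/TAZ#1, DESeq2 called 2 MRPL lower, library size alone 0 MRPL higher and 1 MRPS lower, and the fits with no filter, on TPM with either pseudocount, on coding TPM, with only these groups or at 0.01 called 0 MRPL in either direction. MRPS lower was 0 on TPM with either pseudocount and 1 on coding TPM or at 0.01. GC offsets gave 3 and 4 MRPL, 1 MRPS higher and 2298 genes lower there. All genes in that contrast gave 39 and 78 on TPM + 1, 49 and 69 on TPM + 0.1, 781 and 917 on coding TPM and 1064 higher at 0.01. The log2 ratio of the summed levels, 0.10 and 0.20 (MRPL) and 0.14 and 0.17 (MRPS) on TPM, was -0.26 and -0.26, and -0.24 and -0.29, on TMM-scaled CPM, and -0.098 and -0.14 for siYAP/TAZ#2 scaled to coding genes. The cause of these moves was not tested.

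Leaving out 1 library gave 13 to 29 MRPL and 12 to 16 MRPS genes lower with siYAP/TAZ#1, 16 to 26 MRPL and 11 to 17 MRPS lower with siYAP/TAZ#2, and 0 to 0 MRPL and 1 to 1 MRPS higher. For siYAP/TAZ#2 against siYAP/TAZ#1 it gave 0 to 4 MRPL lower, 0 to 3 higher, 2 to 6 MRPS lower and 0 to 3 higher, with all genes at 1178 to 2287 lower and 1278 to 2840 higher, the upper ends without siYAP/TAZ#2 replicate 1. All genes ran from 3446 to 4950 lower and 3108 to 4224 higher with siYAP/TAZ#1 and from 3683 to 4893 and 3704 to 4614 with siYAP/TAZ#2. The summed TPM ratio ran from -0.061 to 0.20 and 0.068 to 0.30 (MRPL) and from -0.024 to 0.235 and 0.017 to 0.285 (MRPS).

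Some changes had the other sign relative to the median of all genes. On TPM + 1 they were, with siYAP/TAZ#1, MRPL10 (0.11), MRPS16 (0.032), MRPS24 (0.032), MRPS36 (0.0039) and MRPS18B (0.066), and with siYAP/TAZ#2, MRPL1 (0.11), MRPS14 (0.10), MRPS18A (0.077), PTCD3 (0.14), MTIF2 (0.069) and CLPP (0.11). On TPM + 0.1 they were MRPL1 (0.029), MRPS14 (0.032) and PTCD3 (0.00096) with siYAP/TAZ#2. On coding TPM, as scaled, they were MRPL10 (0.078), MRPL50 (0.016), MRPS36 (0.025) and MRPS18B (0.034) with siYAP/TAZ#1, and MRPL1 (0.13), MRPS14 (0.13), MRPS18A (0.039), PTCD3 (0.10), MTIF2 (0.044) and CLPP (0.069) with siYAP/TAZ#2. GC offsets turned MRPS18A (-0.029) with siYAP/TAZ#1 and MRPL1 (0.0088) with siYAP/TAZ#2. MRPS16 and MTIF2 are the 2 of these whose change was called on TMM-scaled counts. Over the libraries left out in turn, MRPS18A with siYAP/TAZ#1 ran from -0.027 to 0.074 and MT-RNR1 from -0.30 to 0.0058. With siYAP/TAZ#2, MRPL1 ran from -0.10 to 0.18, MRPS36 from -0.22 to 0.026, MRPS14 from -0.093 to 0.080, PTCD3 from -0.12 to 0.017, MT-RNR1 from -0.29 to 0.020 and MT-RNR2 from -0.052 to 0.12.

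With the replicate number as a block, 19 and 22 MRPL and 15 and 15 MRPS genes were lower, 0 and 0 MRPL and 1 and 1 MRPS higher, and between the combinations 1 MRPL lower, 1 higher and 2 MRPS lower. The share of all genes called in that fit is not given here, so these counts have no background. Negative changes there made up 91.8% and 95.9% of MRPL, 82.8% and 86.2% of MRPS and 47.7% and 48.5% of all genes. The labels give same-numbered libraries only that shared number. Of the 12, 5 correlated best with their own number, among them each library numbered 4. With the block, 2 named calls were lost, GABPA with siYAP/TAZ#1 and MTRF1L with siYAP/TAZ#2.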
